A study of Homo sapiens with 2 samples.

Results

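The 10 genes described here encode the enzymes that make and break down the polyamines and the proteins that set the amount of the first enzyme of the pathway. They were taken by symbol (SRM, SMS, ODC1, AMD1, SAT1, OAZ1, OAZ2, AZIN1, PAOX and SMOX) from a table of 46427 gene rows, and all 10 were found once. Messenger RNA was sequenced from cells labelled MiaPaca2 (MIA PaCa-2, a human cell line derived from a pancreatic carcinoma). The cells had received iMQT_020, described in the labels as an inhibitor of mitochondrial glutamine transport, or vehicle, each for 48 hours. The sources used here give neither the dose nor the solvent. There was 1 library of each treatment, so no value has a replicate check, no test of the treatment was possible, and the treatment cannot be told apart from any other difference between the libraries.

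Polyamines are small positively charged molecules that bind nucleic acids and that growing cells need in quantity. ODC1 makes putrescine from ornithine, AMD1 supplies the aminopropyl donor from S-adenosylmethionine, and the aminopropyltransferases SRM and SMS use that donor to make spermidine and spermine. Spermidine is also the source of hypusine, a modified lysine of the translation factor eIF5A. Glutamine is among the sources of ornithine, and MYC is a known transcriptional activator of ODC1. Much of the control of the pathway lies after transcription: polyamines promote the frameshift that yields full-length antizyme, antizyme delivers ODC1 protein to the proteasome, and upstream reading frames and splicing restrain AMD1 and SAT1. Message levels therefore describe 1 layer of the pathway, and no polyamine or protein was measured in these files.

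The iMQT_020 library held 59139157 estimated counts and the vehicle library 67095283. The polyamine genes took 0.170% of the counts in the iMQT_020 library and 0.179% in the vehicle library. Intervals below are exact 95% intervals of a ratio of scaled counts. Those of ratios between polyamine genes are instead 95% Wald intervals on unscaled counts. Both kinds cover counting error only. Ratios are log2 of CPM (counts scaled to a common library total), iMQT_020 over vehicle. Levels of different genes are compared in deposited TPM, a measure scaled by transcript length and to the same total. In bulk RNA, a lower level in every cell and a smaller share of cells that express a gene cannot be told apart. The label of the cells was checked against markers. Of the keratin genes of pancreatic ductal and carcinoma cells, KRT8 and KRT18 exceeded 1 TPM in both libraries, while KRT7 and KRT19 were at 0 counts in both. The neighbouring genes MTAP, CDKN2A and CDKN2B, whose loss is a known feature of MIA PaCa-2, were expressed, with CDKN2A at 208 TPM in the iMQT_020 library and 278 TPM in the vehicle library. CD44, which MIA PaCa-2 cells are known to express strongly, stood at 0.0209 TPM in the iMQT_020 library and 0.0964 TPM in the vehicle library. VIM, from the same list of genes described as present in that line, was at 438 TPM in the iMQT_020 library and 403 TPM in the vehicle library, and ANXA1 at 2.74 and 3.13 TPM in the same order. Of 5 markers of other cell types, COL1A1, a fibroblast collagen, was the one above 1 TPM, at 11.1 TPM in the iMQT_020 library and 16.5 TPM in the vehicle library. VIM was thus expressed as described for the line. ANXA1 was detected at a low level only, with 100 counts in the iMQT_020 library and 132 in the vehicle library. Expression of the 3 genes that the line has lost and the low CD44 go against the label. The values are those of the cells labelled MiaPaca2. MTAP touches the pathway itself, since it clears methylthioadenosine, the by-product of SRM and SMS. It stood at 26.2 TPM in the iMQT_020 library and 33.7 TPM in the vehicle library.

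SRM, spermidine synthase, was the polyamine gene furthest from equality between the libraries. It was 2.65-fold lower after iMQT_020 (log2 ratio −1.41), or −0.99 on the log2 scale once set against genes of like base composition and length. No other polyamine gene was 2-fold apart. A gene was called measured when at least 1 library held 50 counts or more. Of the 14805 such genes, the iMQT_020 library was at least 2-fold lower in 3.09% and at least 2-fold higher in 2.15%. The 10 genes were proposed with these values known, so their count is a description. All 10 passed the minimum of 50 counts. The log2 ratio was below 0 for 5 of them and above 0 for 5, with a median of −0.04, against a median of −0.02 over all measured genes, of which 52.7% were below 0.

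**Figure D1:**
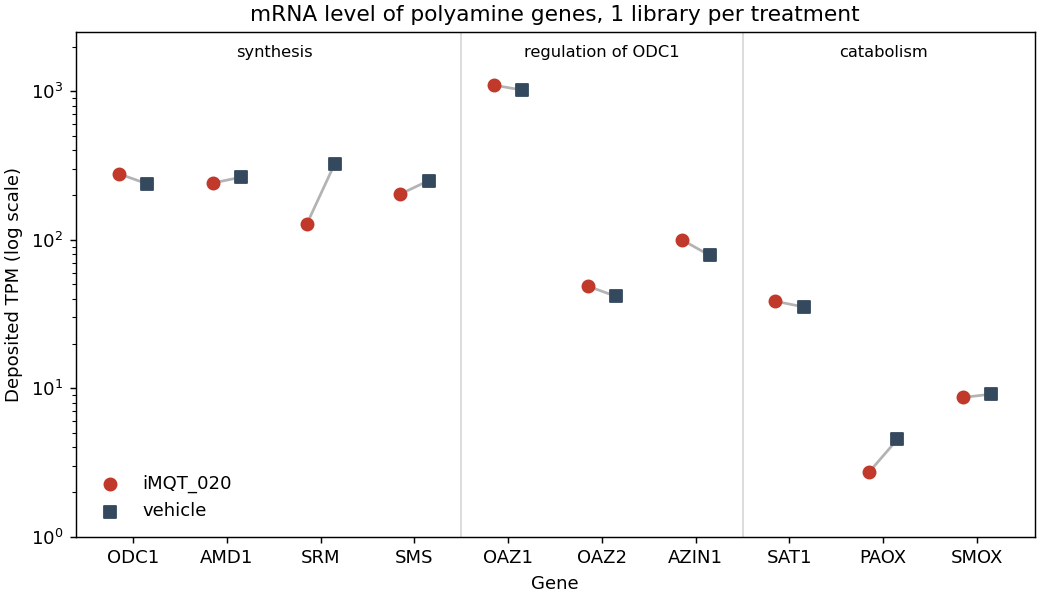
Deposited TPM (log axis) of the 10 polyamine genes, iMQT_020 as circles and vehicle as squares, 1 library each, grouped by role. SRM was at 127 TPM in the iMQT_020 library and 326 TPM in the vehicle library, the widest gap among the 10.

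The levels of the 4 synthesis enzymes were further apart in the iMQT_020 library than in the vehicle library. In the iMQT_020 library ODC1 was at 278 TPM, AMD1 at 241, SRM at 127 and SMS at 203, and 4 of the 10 genes were above SRM. In the vehicle library ODC1 was at 238 TPM, AMD1 at 264, SRM at 326 and SMS at 250, and OAZ1 alone was above SRM. The summed level of the 4 enzymes was 850 TPM in the iMQT_020 library and 1078 TPM in the vehicle library. SRM gave 14.97% of that sum in the iMQT_020 library and 30.3% in the vehicle library. ODC1 gave 32.7% of it in the iMQT_020 library and 22.1% in the vehicle library, and SMS gave 23.9% and 23.2% in the same order.

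ODC1, ornithine decarboxylase (gene 4953, chromosome 2, 10439968 to 10448327 on GRCh38.p14, the build of all positions given here), had 17576 counts in the iMQT_020 library and 17572 in the vehicle library. The iMQT_020 library was the smaller one, so the ratio of scaled counts was slightly above 0, at 0.18 (0.15 to 0.21). Deposited FPKM was 111 in the iMQT_020 library and 97.8 in the vehicle library. The step that starts the pathway thus differed by 1.13-fold at the message level. The small nucleolar RNA SNORA80B lies within ODC1 and had 12 counts in the iMQT_020 library and 3 in the vehicle library, too few to bear on the ODC1 value.

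AMD1, S-adenosylmethionine decarboxylase (gene 262, chromosome 6, 110814617 to 110895713), had 21017 counts in the iMQT_020 library and 26851 in the vehicle library. That is a log2 ratio of −0.18 (−0.20 to −0.15), or 1.13-fold lower after iMQT_020. The span of AMD1 overlaps that of CDK19, a kinase of the Mediator complex, which went the other way with 2126 counts in the iMQT_020 library and 1601 in the vehicle library. No source used here gives the strand setting, and reads from the overlap cannot be told apart. With the overlapping models added, the AMD1 ratio was −0.12.

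SRM (gene 6723) lies on chromosome 1 from 11054589 to 11060018 and overlaps no other gene model of the annotation. It had 4083 counts in the iMQT_020 library and 12242 in the vehicle library. Deposited FPKM was 50.7 in the iMQT_020 library and 134 in the vehicle library. The log2 ratio of CPM was −1.41 (−1.46 to −1.36). On log2(value + 1) of the deposited units it was −1.35 with TPM, where 1.49% of genes at 1 TPM or more were at least 2-fold lower, and −1.39 with FPKM, where 0.908% of genes at 1 FPKM or more were. Well-covered genes, those for which 1 library or both held 1000 counts or more, numbered 9312. Of these, 0.956% were at least 2-fold lower and 0.322% at least 2-fold higher, and 24 genes had a lower ratio than SRM. The central 95% of ratios of these well-covered genes ran from −0.76 to 0.59.

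SMS, spermine synthase (gene 6611, chromosome X, 21940709 to 21994837), takes the next aminopropyl step. It had 8855 counts in the iMQT_020 library and 12679 in the vehicle library, with a log2 ratio of −0.34 (−0.38 to −0.30), and 20.6% of measured genes had a lower ratio. SMS was therefore lower in the same library as SRM, by 1.27-fold. The iMQT_020 library held less than 0.5 times as many SRM counts as SMS counts, at 4083 and 8855, whereas the vehicle library held nearly as many, at 12242 and 12679.

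Ratios between polyamine genes within a library do not depend on how the libraries are scaled. They were not centred on GC content and length, and the GC content of SRM is 63.7%, of ODC1 49.4%, of SMS 44.2% and of AMD1 37.9%. Centred, the log2 ratio between the libraries was −0.99 for SRM, −0.26 for SMS, −0.28 for AMD1 and 0.26 for ODC1, which are closer together than as computed. The TPM of SRM was 0.625 times that of SMS in the iMQT_020 library and 1.30 times in the vehicle library. In counts, the SRM to SMS ratio was 2.09-fold lower in the iMQT_020 library (log2 −1.07, with −1.13 as the far end of a Wald interval of counting error). The SRM to ODC1 ratio differed by −1.58 on the log2 scale (−1.64 to −1.53) and the SRM to AMD1 ratio 2.35-fold lower (log2 −1.23, −1.29 to −1.17). The other enzymes stayed closer to each other, with the SMS to ODC1 ratio at −0.52, the AMD1 to ODC1 ratio at −0.35 and the SMS to AMD1 ratio at −0.16 on the same log2 scale.

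**Figure D2:**
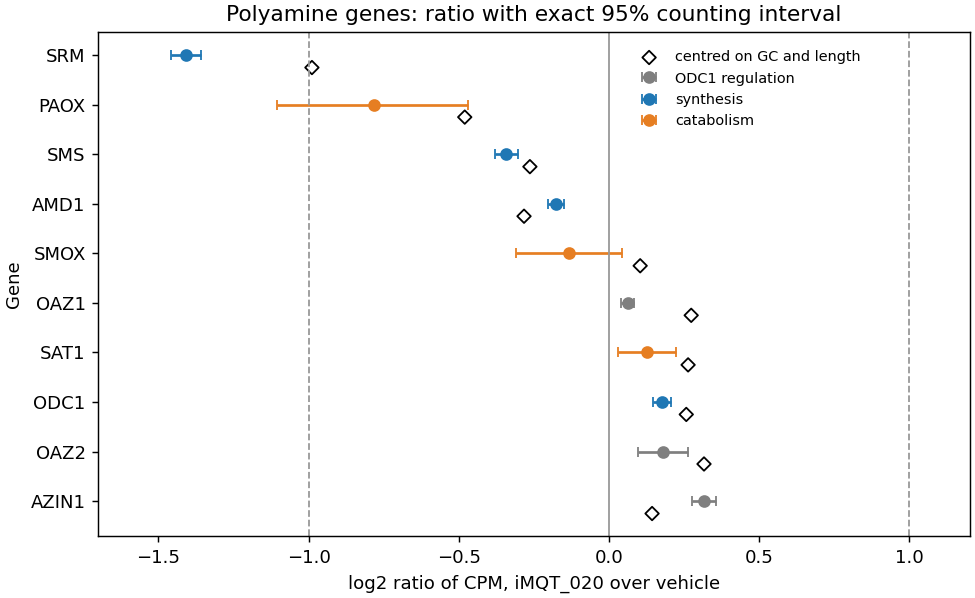
Log2 ratio of CPM, iMQT_020 over vehicle, for each polyamine gene, with the exact 95% counting interval as a bar and the 2-fold limits as dashed lines. Open diamonds give the ratio less the median of genes of like GC content and length: SRM moved from beyond the 2-fold limit at −1.41 to just within it at −0.99.

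The region before the start of SRM is shown because it holds CACGTG, the E-box sequence that MYC and MAX are known to bind, and because MYC itself was lower in the iMQT_020 library (below). The RefSeq promoter windows of GRCh38.p14 run from 250 bases before to 50 bases after a gene start, and 7 of the 10 genes had at least 1, with 10 windows in all. The motif reads the same on both strands. The part of the SRM window that lies outside annotated exons, chr1:11060021-11060268 on the minus strand, reads as follows 5′ to 3′, with the E-box in capitals.
SRM upstream: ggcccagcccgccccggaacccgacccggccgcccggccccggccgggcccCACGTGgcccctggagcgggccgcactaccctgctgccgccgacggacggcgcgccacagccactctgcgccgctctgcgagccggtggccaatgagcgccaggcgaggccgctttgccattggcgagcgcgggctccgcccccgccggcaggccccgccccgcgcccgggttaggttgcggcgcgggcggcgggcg
The E-box of SRM begins 199 bases before the gene start. ODC1 has 2 RefSeq windows, and the one at its second, inner start holds the motif at 2 places, 29 bases before that start and at base 6 after it. The 3 places are set side by side with 10 bases on each side.
SRM: ggccgggcccCACGTGgcccctggag
ODC1 first: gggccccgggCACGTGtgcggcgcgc
ODC1 second: cctgcggagaCACGTGgtcgccgagc
The SRM stretch is chr1:11060202-11060227, and those of ODC1 are chr2:10448026-10448051 and chr2:10447992-10448017, all on the minus strand. The windows of AMD1, SMS, OAZ1, OAZ2 and SAT1 held none.

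The E-box sequence was present in 7.26% of all 35116 windows. Of the measured genes with a window, 12.8% had it in at least 1. The median log2 ratio was −0.05 for the 1441 genes with the motif and −0.01 for the 9854 genes without it. At least 2-fold lower were 2.36% of the genes with the motif and 2.68% of those without. SRM and ODC1 both hold the sequence and had log2 ratios of −1.41 and 0.18. A match of letters is a description and does not show that a factor was bound.

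ODC1 is held in check by antizymes, small proteins that bind the enzyme and carry it to the proteasome, and is released by the antizyme inhibitor, a relative of ODC1 without its activity. OAZ1 (gene 4946, chromosome 19, 2269486 to 2273488) was the most abundant of the 10 messages, at 1100 TPM in the iMQT_020 library and 1020 TPM in the vehicle library. Its counts were 33145 in the iMQT_020 library and 35882 in the vehicle library, a log2 ratio of 0.06 (0.04 to 0.08). OAZ1 exceeded ODC1 3.96-fold in TPM in the iMQT_020 library and 4.29-fold in the vehicle library.

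OAZ2 (gene 4947, chromosome 15, 64687574 to 64703281), the second antizyme, had 2403 counts in the iMQT_020 library and 2398 in the vehicle library, at 48.7 and 41.6 TPM. Its log2 ratio was 0.18 (0.10 to 0.26). AZIN1, the antizyme inhibitor (gene 51582, chromosome 8, 102826302 to 102864200), had the highest ratio of the 10 genes. It had 10859 counts in the iMQT_020 library and 9852 in the vehicle library, at 100 and 78.4 TPM, with a log2 ratio of 0.32 (0.28 to 0.36), or 1.25-fold higher. All 3 regulators thus lay on the higher side, each by less than 1.3-fold. Relative to OAZ1, AZIN1 was 1.19-fold higher in the iMQT_020 library in counts (log2 0.25, Wald interval 0.21 to 0.30). This ratio was not centred on GC content and length. Centred, AZIN1 was at 0.14, OAZ1 at 0.27 and OAZ2 at 0.32. AZIN1 was then below both antizymes, and OAZ2 was the highest of the 10 genes.

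The catabolic genes were the least abundant, with a summed level of 49.9 TPM in the iMQT_020 library and 49.0 TPM in the vehicle library. SAT1, which acetylates spermidine and spermine for export or oxidation (gene 6303, chromosome X, 23783173 to 23786210), made up 77.2% of that sum in the iMQT_020 library and 72.1% in the vehicle library. It had 1719 counts in the iMQT_020 library and 1778 in the vehicle library, at 38.5 and 35.3 TPM, and a log2 ratio of 0.13 (0.03 to 0.22). The TPM of SAT1 was 0.303 times that of SRM in the iMQT_020 library and 0.108 times in the vehicle library.

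PAOX, the oxidase of acetylated polyamines (gene 196743, chromosome 10, 133379262 to 133391694), had 127 counts in the iMQT_020 library and 247 in the vehicle library. It stood at 2.72 TPM in the iMQT_020 library and 4.52 TPM in the vehicle library. Its log2 ratio was −0.78, and the counting interval was the widest of the 10, from −1.10 to −0.47, so counts alone cannot place it within or beyond 2-fold. SMOX, which oxidises spermine directly (gene 54498, chromosome 20, 4148828 to 4187727), had 473 counts in the iMQT_020 library and 586 in the vehicle library, at 8.67 and 9.12 TPM. Its interval, from −0.31 to 0.04 around −0.13, included equality.

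Ordered by ratio from lowest to highest, the genes ran SRM, PAOX, SMS, AMD1, SMOX, OAZ1, SAT1, ODC1, OAZ2 and AZIN1. The counting intervals of neighbours overlapped between AMD1 and SMOX, between SMOX and OAZ1, between OAZ1 and SAT1, between SAT1 and ODC1 and between ODC1 and OAZ2, so those pairs are not ordered beyond counting error. As computed, SRM stood apart from PAOX, PAOX from SMS, and SMS from AMD1. This order is of ratios not centred on GC content and length. Centred, SMS was at −0.26 and AMD1 at −0.28, the reverse order. At a 1.5-fold limit the lower genes were SRM and PAOX, 2 of 10, where 10.2% of measured genes were as low, and 0 of 10 were higher, where 6.3% of measured genes were.

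**Figure D3:**
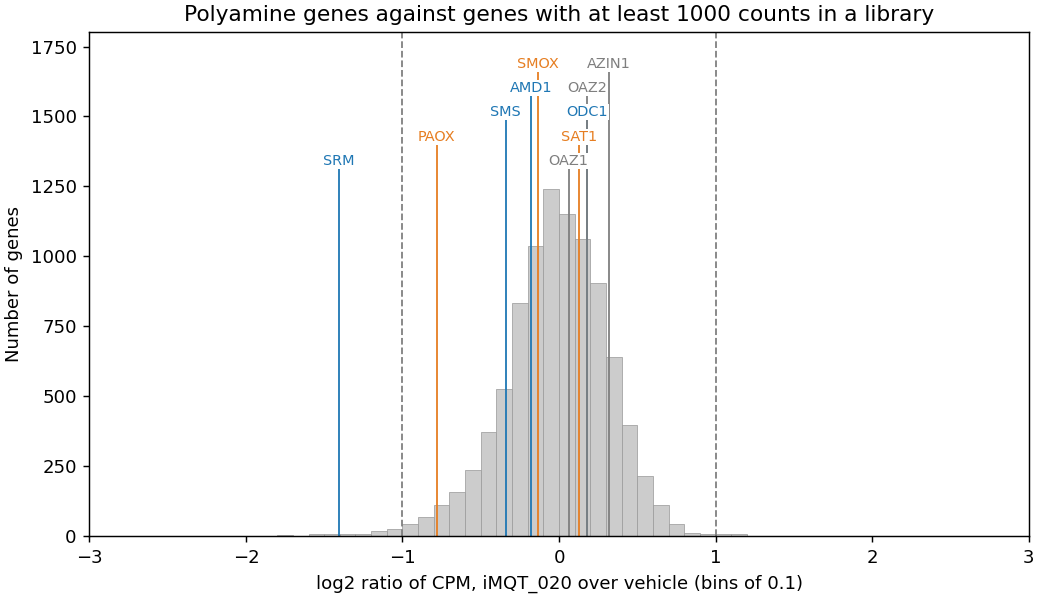
Number of genes per 0.1 of log2 ratio, iMQT_020 over vehicle, for the 9312 well-covered genes (bars), with each polyamine gene as a line of arbitrary height. SRM at −1.41 lies in the lower tail, and the other genes apart from PAOX lie within 0.35 of equality; PAOX and SMOX have fewer than 1000 counts and are not among the genes in the bars.

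Near-identical copies could take reads from a gene. The table lists 9 pseudogenes of SMS, AMD1 and ODC1, with at most 16 counts in the iMQT_020 library and at most 24 in the vehicle library. Their summed counts were 41 in the iMQT_020 library and 56 in the vehicle library, small beside the counts of their parent genes. Counts were summed over the transcripts of a gene, between 2 and 11 listed per gene, so isoforms such as the SAT1 transcript with an extra exon were not separated.

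The ratio between the libraries varied with base composition, and SRM lies at the end of the range. Median log2 ratios went from 0.13 in the lowest of 10 bins of transcript GC content to −0.31 in the highest. SRM, at 63.7% GC, and PAOX, at 63.0%, were in the highest bin, and SMOX, at 60.7%, in the next. The 212 measured genes in the bin of GC content and length that holds SRM had a median of −0.42. Less that median, SRM was at −0.99, on the other side of the 2-fold limit though still the lowest of the 10. PAOX was at −0.48 on this scale, and SMOX turned from −0.13 to 0.10. AMD1 and SMS, at 37.9% and 44.2% GC, were at −0.28 and −0.26. The part of base composition in the SRM difference was not tested.

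**Figure D4:**
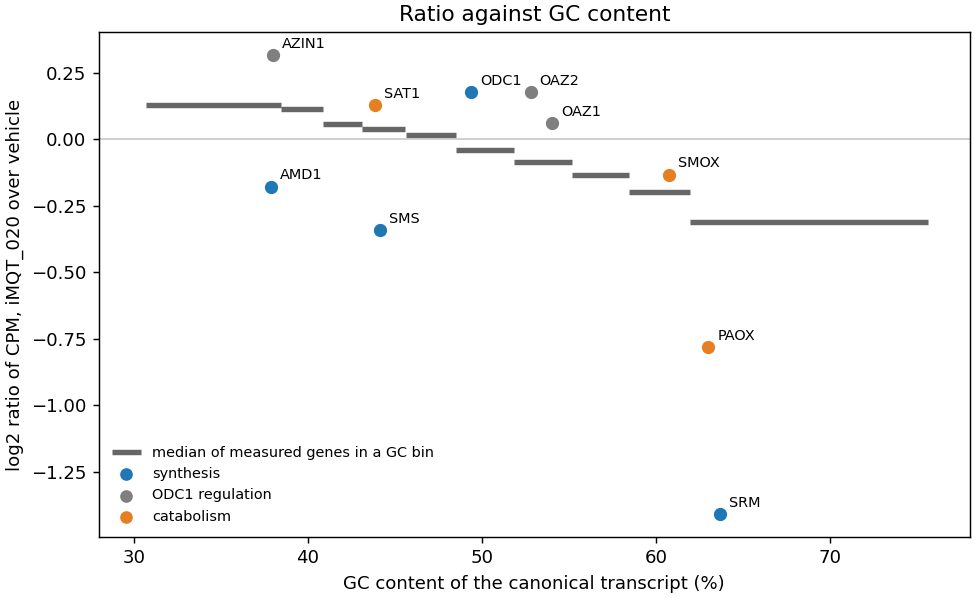
Log2 ratio of CPM, iMQT_020 over vehicle, against the GC content of the canonical transcript for the 10 polyamine genes (points) and the median of measured genes in each of 10 GC bins (bars spanning the bin). SRM and PAOX share the highest GC bin, whose median is −0.31, and SRM lies further below it than PAOX.

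Genes of neighbouring pathways were read from 6 lists with 59 genes in all, of which 49 were measured. At least 2-fold lower was 1 of the 49, MYC, and 0 were at least 2-fold higher, against the 3.09% and 2.15% of all measured genes given above. The log2 ratio was below 0 for 32 of the 49 and their median was −0.17, beside 52.7% and −0.02 over all measured genes. The same 52.7% applies to the counts below 0 of each list that follows. Centred on GC content and length, a reading of the lists chosen after the data were seen, 29 of the 49 were below 0, the median was −0.11 and MYC was still the 1 gene at least 2-fold lower.

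Ornithine and arginine supply had 11 of 15 genes measured, 9 of them below 0, with a median of −0.35. Centred on GC content and length, 8 of the 11 were below 0 and the median was −0.20. PYCR1, which makes proline from the same precursor that can yield ornithine, was lowest at −0.79 (−0.85 to −0.74), with 90.9 TPM in the iMQT_020 library and 148 TPM in the vehicle library. ASS1, argininosuccinate synthase, was at −0.64 (−0.72 to −0.56) with 1982 counts in the iMQT_020 library and 3501 in the vehicle library. PRODH, proline dehydrogenase, was at −0.63 with only 46 counts in the iMQT_020 library and 81 in the vehicle library. When centred, PYCR1 was at −0.45, ASS1 at −0.41 and PRODH at −0.29.

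Supply of S-adenosylmethionine and methionine salvage had 12 of 13 genes measured, 7 below 0 and 5 above, with a median of −0.07. MRI1, the isomerase of the salvage route that follows MTAP, was at −0.70 (−0.76 to −0.65), at 55.3 TPM in the iMQT_020 library and 87.3 TPM in the vehicle library. ADI1, a dioxygenase near the end of that route, lay on the other side at 0.45 (0.41 to 0.49), at 183 TPM in the iMQT_020 library and 130 TPM in the vehicle library. AHCYL2, a relative of the S-adenosylhomocysteine hydrolase, was at 0.46 (0.36 to 0.56). The salvage route that recycles the by-product of SRM and SMS was thus not shifted in 1 direction.

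Of the 4 hypusination genes, all measured, 3 were below 0, with a median of −0.16. Centred on GC content and length, 1 was below 0, DHPS at −0.35, and the median was 0.11. DHPS, which transfers the aminobutyl part of spermidine to eIF5A, was at −0.58 (−0.68 to −0.48), at 38.5 TPM in the iMQT_020 library and 55.7 TPM in the vehicle library. DOHH, which completes hypusine, was at −0.29 (−0.40 to −0.18) as computed and at 0.01 when centred. EIF5A2, the less abundant form of the substrate, was at 0.41 (0.30 to 0.51), at 11.7 TPM in the iMQT_020 library and 8.52 TPM in the vehicle library.

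Polyamine transport had 8 of 12 genes measured, 5 below 0, with a median of −0.20. CAV1, caveolin, was at −0.47 (−0.65 to −0.29), SLC18B1, a vesicular polyamine transporter, at −0.45 (−0.51 to −0.38), and SLC3A2, the heavy chain of amino acid exchangers, at −0.26 (−0.31 to −0.22). When centred, CAV1 was at −0.50, SLC18B1 at −0.48 and SLC3A2 at −0.06. Of the 4 close relatives of the polyamine genes, 3 were measured. SAT2, a relative of SAT1, was at −0.28 (−0.38 to −0.19), SATL1 at −0.19 with 48 counts in the iMQT_020 library and 62 in the vehicle library, and AZIN2 at 0.34 with 151 and 135 counts in the same order. OAZ3, an antizyme known from the testis, had 48 counts in each library, under the minimum.

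MYC and 10 genes of its network were all measured, with 6 below 0, 5 above and a median of −0.11. MYC had 7796 counts in the iMQT_020 library and 19348 in the vehicle library, at 77.5 and 164 TPM, with a log2 ratio of −1.14 (−1.17 to −1.10). Unlike SRM, MYC was little moved by the centring on GC content and length, at −1.13. MXD3, a MAX partner that opposes MYC, was at −0.65 (−0.81 to −0.48), and MGA, a large MAX partner, at 0.59 (0.54 to 0.64). When centred, MXD3 was at −0.21 and MGA at 0.39.

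**Figure D5:**
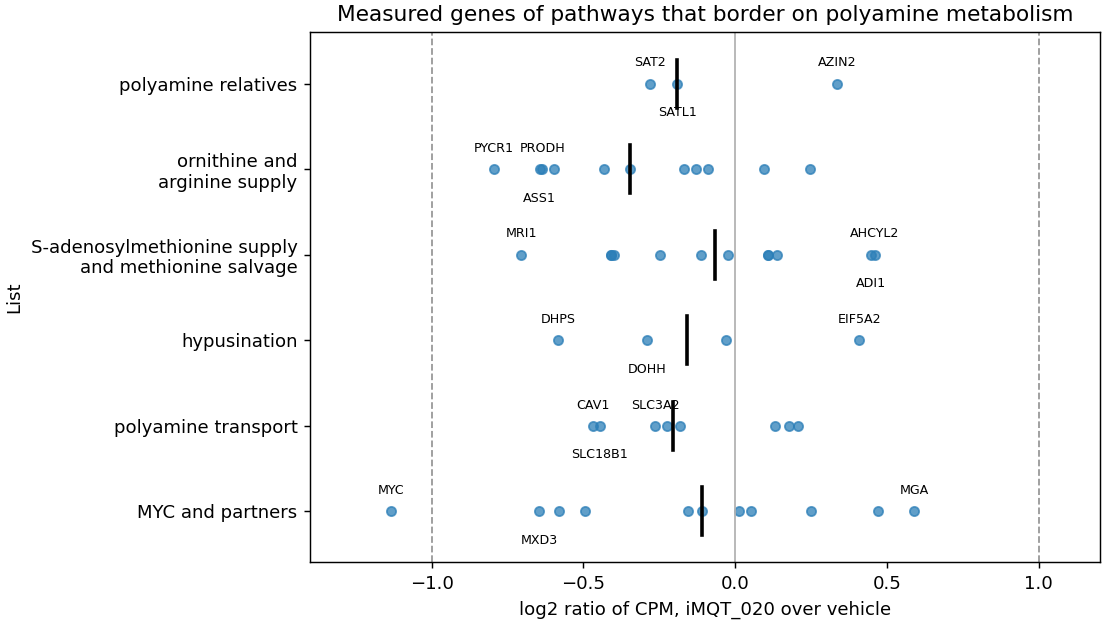
Log2 ratio of CPM, iMQT_020 over vehicle, of each measured gene (points) in 6 lists of neighbouring pathways, with the median of each list as a bar and the 2-fold limits as dashed lines. MYC at −1.14 is the only one of the 49 genes outside the limits.

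With 2 libraries a pattern is a single ratio, so likeness was taken as the distance in log2 ratio among 8612 genes that had 1000 counts or more in both libraries. Nearest to SRM were PGGHG, a glucosidase of hydroxylysine-linked sugars, at −1.41, SELENBP1, selenium binding protein 1, at −1.31, and DDIT4, an inhibitor of mTORC1, at −1.31. PGGHG had 1087 counts in the iMQT_020 library and 3269 in the vehicle library. Nearest to AZIN1 were UHRF1BP1L, NIN, which encodes the centrosomal protein ninein, and HMGB2, a chromatin protein, each at 0.32.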

How the data were processed

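One table gave, for each gene, whole-number estimated counts, FPKM and TPM, all deposited by the authors. Reads were mapped to GRCh38 with HISAT2, with Bowtie2 named as its aligner, per the labels' protocols, and the submitters' processing notes also list StringTie and edgeR, with neither versions nor what each did. No source used here gives the read length, strand setting or counting step. The deposited FPKM values are scaled by transcript length and depth, and the deposited TPM values are scaled by length to a common total. A shorter deposited table repeats the FPKM of 20787 genes. Columns were matched to samples by name, with 0 value columns unassigned.

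Counts were scaled by TMM in edgeR 4.0.16 (R 4.3.3), with factors of 1.00 (iMQT_020) and 0.998 (vehicle), and ratios used a prior count of 0.5. No test was made. Intervals treat estimated counts as whole reads and may be too narrow. GC content and length came from GENCODE 44 canonical transcripts, for 93.6% of measured genes, in 10 bins each. Positions and promoter windows came from RefSeq (GRCh38.p14), which matched 44698 rows by gene ID. The calculation was checked on simulated counts. Python 3.11.15, numpy 2.4.6, pandas 2.3.3, scipy 1.17.1 and matplotlib 3.10.9 were used.

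The members and lists were chosen with earlier results of these data known. Named were all 10 genes, MYC, list members 2-fold apart, the 3 furthest from 0 in each list, and the 3 nearest in ratio to SRM and to AZIN1. Other list genes enter the counts and medians only, and some are not reported here. The alternatives were other scalings, minimum counts, prior count, units and fold rules, centring on GC content and length, summing of overlapping genes, and, chosen after the data were seen, centring on well-covered genes.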

Additional observations from a re-analysis of the deposited data

How the results depend on the processing

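SRM was lower in the iMQT_020 library under all 10 alternatives, between −1.42 and −0.99, and was within 2-fold only when centred on GC content and length (−0.99); it was −1.35 with deposited TPM. The cause was not tested. SMS, AMD1 and PAOX were below 0 and OAZ1, OAZ2, AZIN1, SAT1 and ODC1 above 0 under all 10, and SMOX was above 0 under 1, the same centring. Of the polyamine genes 2 were lower under a 1.5-fold rule. Of all measured genes, 457 were at least 2-fold lower and 318 higher. The numbers lower and higher were 223 and 140 with deposited TPM, 118 and 48 with deposited FPKM, 1008 and 1236 with a minimum of 10 counts, 244 and 89 with 200, and 2756 and 3503 with 1. They were 1514 and 933 under a 1.5-fold rule and 181 and 136 with the counting interval wholly past 2-fold, and among protein-coding genes 330 and 201. Of the 49 measured genes of the related lists, 7 were lower and 1 higher under a 1.5-fold rule, beside 10.2% and 6.3% of all measured genes. Under the 2-fold rule, 1 and 2 list genes were higher with minimums of 10 and 1. These had few counts. No paired analysis was possible because each treatment had 1 library. PAOX and SMOX are limited by depth.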
